A study of Mus musculus with 4 samples.

Results

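Complement components and regulators were examined in septal brain tissue as 7 genes, C1qa, C1qb, C1qc, C3, C4b, Cd59a and Serping1, chosen by gene symbol. All 7 were among the 15409 gene rows of the data, and 6 of them reached the mean level needed for testing. RNA sequencing compared wild-type (WT) mice with TCRb-/- mice, in which the T cell receptor has no beta chain. Every animal of both genotypes had been restrained in a DecapiCone, a plastic restraint cone, for 30 min on 3 days and was killed 1.5 h after the last session, so no unstressed group was compared. There were 4 libraries, 2 per genotype, each made from the pooled septal tissue of 4 to 5 mice, with 1 library of each genotype in experiment 1 and 1 in experiment 2. For strain, sex and age, the sources used here give nothing. A replicate is a pool, and its number is that of its experiment. Where a pair of values is given for a genotype, the first is replicate 1 and the other replicate 2. RNA was taken from the supernatant of a centrifuged tissue lysate. In such bulk samples fewer cells of a type and less RNA per cell cannot be told apart.

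Complement is a cascade of plasma and tissue proteins that marks surfaces for removal. In the classical pathway C1q binds a target and activates the proteases C1r and C1s, which cleave C4 and C2 and so lead to the cleavage of C3. In the brain C1q is made mainly by microglia, and C1q and C3 are known for tagging synapses that microglia then engulf. Serping1 (the C1 inhibitor) holds back C1r and C1s, and Cd59a, anchored in the cell membrane, blocks assembly of the lytic pore at the end of the cascade.

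The libraries held 19988137 to 26210790 reads, and levels are given as CPM, counts scaled to the library total. Trbc2, a constant segment of the targeted receptor chain, had 169 and 86 reads in WT. In TCRb-/- its count was 0 in each library, where 3 reads would be 0.122 and 0.150 CPM. Septal neuron markers (12 of 12 listed) summed to between 679 and 732 CPM. Markers of striatal neurons, a neighbouring region, were also present at 1257 to 5280 CPM. Of 8 blood cell genes 1 was listed, Alas2, at no more than 3.74 CPM. Over all genes, limma called 0 of 13912 between genotypes (0%, with 43 at an unadjusted p under 0.05). With the experiment as a block, a fit with genotype and experiment as terms, it called 2 (0.0144%). Trbc2 itself was not called without the block (difference -2.59, limma unadjusted p 0.000157), and was called with it (adjusted p 0.0323). Between experiments limma called 3292 (23.7%), of which 1245 were higher (8.95%) and 2047 lower (14.7%) in experiment 2. With genotype as a term it called 24.7%.

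None of the 6 tested complement genes passed the test between genotypes, with or without the block. The fit without the block did not call Trbc2 either, so not passing it does not show that a gene is unchanged. The log2 differences of the 6, TCRb-/- minus WT on the log2(CPM + 1) scale, ran from -0.06 for C1qc to 0.15 for Serping1. Their median was 0.10, against 0.00 for all genes tested. Between experiments 1 of the 6 passed, Cd59a, which rose about 1.84-fold from experiment 1 to experiment 2. For the 3 C1q chains and C4b the highest library was 1.14 to 1.29 times the lowest. By experiment the libraries of 4 of the 6 did not overlap (C1qb, C1qc and Cd59a higher, Serping1 lower in experiment 2), near the share of all genes, of which 67.3% did not overlap (30.1% higher, 37.2% lower).

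**Figure D1:**
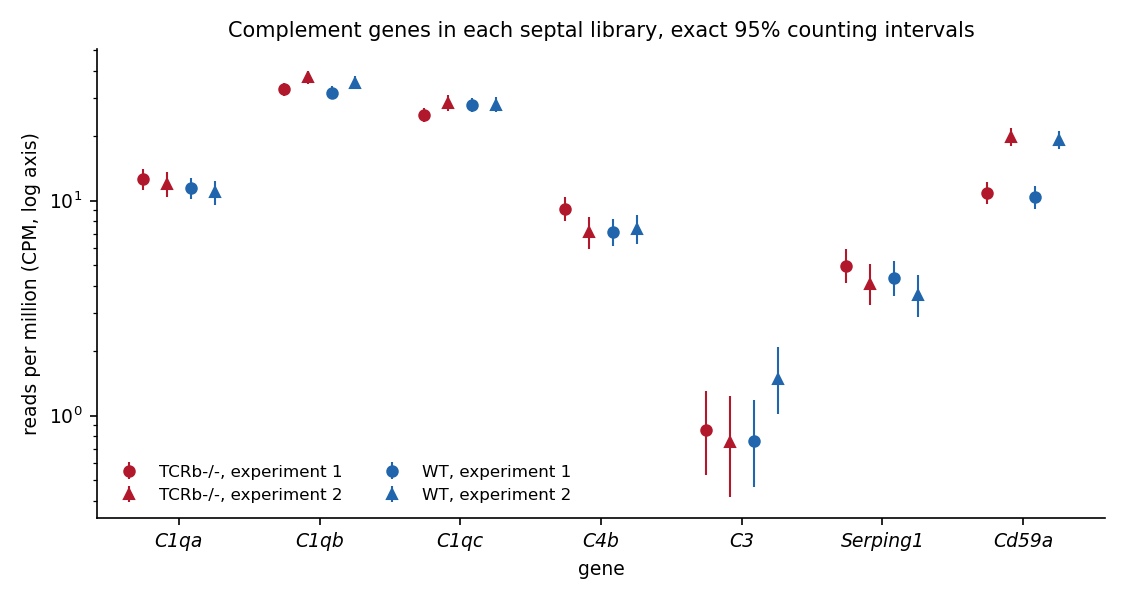
Level of each complement gene in each library, in CPM on a log axis, with exact 95% counting intervals. Colour gives the genotype and the symbol the experiment (circles 1, triangles 2). Cd59a splits by experiment, with 10.4 and 10.9 CPM in experiment 1 and 19.2 and 19.8 CPM in experiment 2, and C3 lies lowest, near 1 CPM.

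C1qa, C1qb and C1qc encode the chains of C1q, the recognition part of the C1 complex. They lie side by side on the minus strand of chromosome 4 in GRCm38, within 18.7 kb, C1qb from 136880129 to 136886187, C1qc from 136889804 to 136893065 and C1qa from 136895917 to 136898803. All 3 are annotated as protein coding and share no exonic base with another gene. None of the 50-base windows of the longest C1qa or C1qb transcript was found in another C1q gene, so their reads can be told apart.

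The sequence just before the start of a C1q gene is shown because these neighbours were the most abundant members. RefSeq's promoter table for GRCm38.p6 matched 4 of the 7 genes, C1qb, C1qc, C3 and Cd59a. Each line gives bases upstream of the start, 5′ to 3′ on the gene's strand, and capitals mark GAGGAA or its reverse complement TTCCTC, a core bound by ETS factors such as PU.1, the myeloid regulator. The C1qb window is chr4:136886201-136886450 (250 bases, minus strand) and the C1qc window is chr4:136893066-136893164 (99 bases, minus strand, leaving out 151 bases that GENCODE places in the first exon).
C1qb: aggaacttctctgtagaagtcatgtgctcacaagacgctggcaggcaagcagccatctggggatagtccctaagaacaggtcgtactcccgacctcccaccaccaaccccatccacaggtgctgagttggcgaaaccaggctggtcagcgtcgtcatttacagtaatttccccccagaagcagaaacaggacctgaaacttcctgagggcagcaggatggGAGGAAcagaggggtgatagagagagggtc
C1qc: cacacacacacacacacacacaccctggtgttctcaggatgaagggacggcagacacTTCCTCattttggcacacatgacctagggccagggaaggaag
Each held 1 match, starting 30 bases before the RefSeq start in C1qb and 193 bases before it in C1qc. Of 32851 promoter windows of 250 bases, 23.3% held GAGGAA on either strand, so a match is common and is only a description. A STAT type palindrome (TTCNNNGAA, 7.02% of windows), a C/EBP type motif (TTGCNNAA, 9.56%) and an interferon response type motif (GAAA, 2 bases of any kind, GAAA; 2.98%), read on both strands, had no match in the 250 bases before C1qb or C1qc.

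C1qb was the most abundant chain, with 33.0 and 37.5 CPM in TCRb-/- and 31.7 and 35.3 CPM in WT. The higher library of each genotype was that of experiment 2, and the genotypes overlapped. The genotype difference of C1qb was 0.07 (SE 0.15, 95% interval -0.31 to 0.45, limma adjusted p 1.00). With the experiment as a block the interval was -0.14 to 0.28 (adjusted p 0.944).

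C1qc had 25.0 and 28.5 CPM in TCRb-/- and 27.8 and 28.0 CPM in WT, so that both WT values lay between the TCRb-/- ones. Its genotype difference was -0.06 (SE 0.15, 95% interval -0.43 to 0.31, limma adjusted p 1.00), and the interval with the block was -0.29 to 0.17.

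C1qa had 12.6 and 11.9 CPM in TCRb-/- and 11.4 and 10.9 CPM in WT. It was the only tested member whose genotypes did not overlap, 1 of 6, where 17.8% of all genes tested did not (9.76% with TCRb-/- higher). The exact 95% intervals of single libraries, 11.2 to 14.1 CPM in TCRb-/- replicate 1 and 9.59 to 12.4 CPM in WT replicate 2, overlapped all the same. The difference of C1qa was 0.12 (SE 0.16, 95% interval -0.28 to 0.53, limma adjusted p 1.00), and -0.16 to 0.41 with the block (adjusted p 0.927).

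Summed over the 3 chains, C1q had 70.7 and 77.9 CPM in TCRb-/- and 70.9 and 74.2 CPM in WT. The highest library was thus 1.10 times the lowest. Per kilobase of the longest coding transcript, C1qb had 2.50 to 3.09 times the level of C1qa and 1.26 to 1.46 times that of C1qc, or 2.03 to 2.34 times over all exonic bases. The ratio of C1qb to C1qa was higher in experiment 2 (3.01 in TCRb-/-, 3.09 in WT) than in experiment 1 (2.50 and 2.66). The ratio of C1qb to C1qc showed no such split (1.45 and 1.40 against 1.46 and 1.26). Neither ratio was tested. Counting error alone, the reciprocal square root of the reads, was 5.68% to 6.48% of each C1qa value and 3.47% to 3.65% of each C1qb value. Between experiments C1qa differed by -0.07, C1qb by 0.16 and C1qc by 0.10, with limma adjusted p from 0.200 to 0.732.

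Microglial marker genes (12 of 12 listed, Csf1r among the most abundant) summed to 185 and 176 CPM in TCRb-/- and to 182 and 170 CPM in WT. Their median difference between genotypes was -0.003, and 0 of 12 passed. C1q reads amounted to 0.382 and 0.442 times that sum in TCRb-/- and 0.389 and 0.437 times it in WT. The ratio was higher in both libraries of experiment 2 and was nearly the same in the genotypes within an experiment. In experiment 2 the C1q sum was higher and the marker sum lower in each genotype, so both moved the ratio. Of the 12 markers 2 were called lower between experiments (16.7%, against 23.7% of all genes called in either direction). Macrophages at the brain's borders also make C1q. Of 8 markers of those cells 4 were listed, at 5.57 and 3.70 CPM in TCRb-/- and 7.33 and 5.14 CPM in WT, with Cd163 and F13a1 the most abundant. Cd163 had 3.34 and 0.550 CPM in TCRb-/- and 4.43 and 2.15 CPM in WT. F13a1 had 1.42 and 1.95 CPM in TCRb-/- and 1.56 and 1.16 CPM in WT, without the split of Cd163. The part of these cells in the C1q values was not tested.

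C4b encodes complement C4, which is cleaved by C1s and attaches to the target. It lies on the minus strand of chromosome 17 from 34728380 to 34743882. C4b had 9.15 and 7.10 CPM in TCRb-/- and 7.13 and 7.38 CPM in WT. TCRb-/- replicate 1 stood above the other 3 libraries. The genotype difference was 0.14 (SE 0.20, 95% interval -0.36 to 0.63, limma adjusted p 1.00), and without TCRb-/- replicate 1 it was -0.03. Within experiment 1 it was 0.32 and within experiment 2 it was -0.05. C4b has a near copy on the same chromosome, C4a, and 35.2% of the 50-base windows of the longest C4b transcript were found in a C4a transcript. C4a was looked up in the wider list but was not among the listed gene rows, so it has no level here. Between experiments C4b differed by -0.14 (SE 0.16, limma adjusted p 0.543). Reads of C4a and C4b could be split or dropped in counting, so the C4b level is uncertain.

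C3 is the point where the pathways of complement meet, and lies on the minus strand of chromosome 17 from 57203970 to 57228136. It was the lowest member, with 21 and 15 reads in TCRb-/- and 20 and 33 reads in WT. These counts are 0.854 and 0.750 CPM in TCRb-/- and 0.763 and 1.48 CPM in WT. WT replicate 2 stood highest, with an exact 95% interval of 1.02 to 2.07 CPM against 0.466 to 1.18 CPM in WT replicate 1. The mean of 0.961 CPM left C3 below the level for testing (1 CPM). With all listed genes in the limma fit, C3 differed between genotypes by -0.21 (SE 0.23, 95% interval -0.79 to 0.37, adjusted p 1.00) and between experiments by 0.20 (SE 0.21, adjusted p 0.514). That fit called 0% of genes between genotypes and 21% between experiments.

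Serping1 lies on the minus strand of chromosome 2 from 84765387 to 84775444. It had 4.96 and 4.10 CPM in TCRb-/- and 4.35 and 3.62 CPM in WT. The TCRb-/- library was the higher in each experiment, by 0.16 in experiment 1 and 0.14 in experiment 2 on the log2(CPM + 1) scale, but the genotypes overlapped. The genotype difference was 0.15 (SE 0.21, 95% interval -0.37 to 0.67, limma adjusted p 1.00), and -0.23 to 0.53 with the block (adjusted p 0.933). Between experiments Serping1 differed by -0.22 (SE 0.16, limma adjusted p 0.355). Counting error alone, the reciprocal square root of the reads, was 9.05% to 11.1% of each value.

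Endothelial and meningeal fibroblast cells are known sources of Serping1. Endothelial markers (9 of 10 listed, Slc2a1 and Itm2a the most abundant) summed to 82.5 and 81.5 CPM in TCRb-/- and 79.2 and 71.7 CPM in WT. Meningeal fibroblast markers (10 of 10, Igfbp2 and Igf2 the most abundant) summed to 110 and 200 CPM in TCRb-/- and 84.0 and 139 CPM in WT. Both sums were higher in TCRb-/- in each experiment, but the other 8 fibroblast markers summed to 41.5 and 39.1 CPM in TCRb-/- and 41.7 and 33.1 CPM in WT, and 3 of the 9 tested were higher in both experiments. The fibroblast sum was higher in experiment 2, but the sum of the other 8 was lower there in each genotype, as was Serping1. Without Slc2a1 and Itm2a, the endothelial sum was 19.1 and 15.2 CPM in TCRb-/- and 16.6 and 13.5 CPM in WT. The part of these cells in Serping1 was not tested.

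Cd59a lies on the plus strand of chromosome 2 from 104095801 to 104115354, next to Cd59b, the other mouse Cd59 gene. Cd59a had 10.9 CPM in TCRb-/- and 10.4 CPM in WT in experiment 1, and 19.8 and 19.2 CPM in experiment 2. Both libraries of experiment 2 lay far above both of experiment 1, and within an experiment the exact 95% intervals of the genotypes overlapped (9.60 to 12.2 and 9.18 to 11.7 CPM, then 17.9 to 21.9 and 17.5 to 21.1 CPM).

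The difference of Cd59a between experiments was 0.82 (SE 0.11, 95% interval 0.56 to 1.08, limma adjusted p 0.00586), at 0.81 within TCRb-/- and 0.83 within WT. It was the only member called of the 6 tested, a share of 16.7% where 23.7% of all genes were called, and 8.95% were called as higher. By genotype the difference was 0.05. Its 95% interval was -0.92 to 1.02 in the fit without the block, where the spread between experiments enters the error, and -0.22 to 0.32 with the block (adjusted p 0.977).

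**Figure D2:**
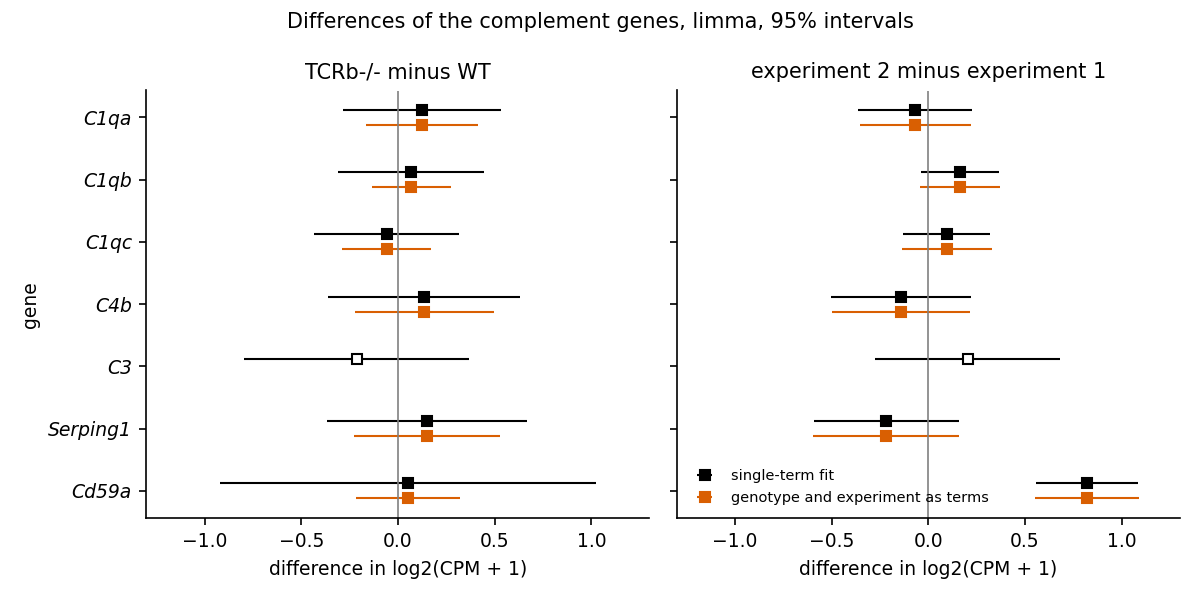
Differences of each complement gene in log2(CPM + 1), by genotype (left) and between experiments (right), with 95% intervals from limma. Black is the fit with a single term, orange the fit with genotype and experiment as terms, and the open symbol marks C3, fitted with all listed genes. The interval of Cd59a between experiments, 0.56 to 1.08, lies above 0, and every interval by genotype spans 0.

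Cd59b had 1.34 and 2.45 CPM in TCRb-/- and 2.06 and 2.102 CPM in WT, between 5.04 and 9.15 times less than Cd59a. Its difference between experiments was 0.29 (SE 0.20, limma adjusted p 0.326). Of the 50-base windows of the longest Cd59a transcript 3.98% were found in a Cd59b transcript, so few Cd59a reads could come from its neighbour. The sequence before Cd59a, the member that differed, is chr2:104095551-104095800 (250 bases, plus strand), with the same core in capitals.
Cd59a: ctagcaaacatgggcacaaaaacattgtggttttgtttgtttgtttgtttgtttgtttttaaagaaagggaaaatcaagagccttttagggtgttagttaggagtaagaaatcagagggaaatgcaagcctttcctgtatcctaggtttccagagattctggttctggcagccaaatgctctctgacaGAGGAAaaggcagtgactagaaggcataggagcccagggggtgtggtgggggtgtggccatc
The Cd59a window held 1 GAGGAA, starting 62 bases before the start, and 1 interferon response type motif, 187 bases before it. It held no TTCNNNGAA or TTGCNNAA. In the C3 window the count was 1 for TTGCNNAA and 0 for the others.

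In a search of the 9821 genes whose mean reached 10 CPM, the profiles over the 4 libraries nearest to that of Cd59a were those of Resp18, Lhfpl5 and Cited1. Their Euclidean distances on the centred log2(CPM + 1) scale were 0.059, 0.093 and 0.095, against a span of 0.87 for Cd59a itself. Resp18 had 185 and 335 CPM in TCRb-/- and 184 and 312 CPM in WT. Over 4 libraries such a likeness is only a description, since 67.3% of all genes tested did not overlap by experiment. Shared regulation was not tested. The profile of C3 spans 0.50, and the nearest to it were those of Zfp119b, Zfp873 and Hes5 at distances of 0.14 each, a likeness that rests on few C3 reads. No other member's profile spanned 0.5.

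Several marker lists moved with the experiment as Cd59a did. Choroid plexus markers (15 of 15 listed, Ttr and Enpp2 the most abundant) summed to between 1338 and 2185 CPM in experiment 1 and between 4247 and 6984 CPM in experiment 2. Ependymal markers (10 of 10, Rsph1 and Ccdc153 the most abundant) went from between 163 and 210 CPM to between 242 and 264 CPM. Lists of striatal neurons (10 of 10, Ppp1r1b and Penk the most abundant; 4721 to 5280 CPM, then 1257 to 2845 CPM) and of mural cells of vessels (9 of 9, Vtn and Acta2; 60.8 to 69.3 CPM, then 29.4 to 31.7 CPM) went the opposite way. Their part in the Cd59a difference was not tested.

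Choroid plexus and ependymal sums were also higher in TCRb-/- than in WT in each experiment, as was Cd59a, by 0.06 and 0.04. This was not particular to them, since the microglia, astrocyte, endothelial and meningeal fibroblast sums were too. Of the 6 tested members 4 were higher in TCRb-/- in both experiments. What Cd59a difference any of those cells would bring was not tested. The sums of other lists were closer across libraries, for astrocyte (2700 to 2956 CPM), for oligodendrocyte (9486 to 11266 CPM) and for neuron markers (6697 to 7496 CPM). Of the 10 neuron markers 6 were called between experiments all the same, 3 higher and 3 lower (60%, against 23.7% of all genes). Of the 12 astrocyte markers 2 were called (16.7%) and of the 10 oligodendrocyte markers 1 (10%), all lower. The difference between experiments also varied with gene length, when genes are cut by exonic length into 10 classes. Among the 1354 tested genes in the class of Cd59a, C1qc and Serping1, the median difference was 0.12, and 17.5% were called as higher. In the shortest class, which holds C1qa and C1qb, these values were 0.19 and 24.1%. In the class of C4b, with longer genes, they were -0.10 and 4.51%, against -0.03 and 8.95% for all genes tested. The part of length in the differences of the members was not tested.

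**Figure D3:**
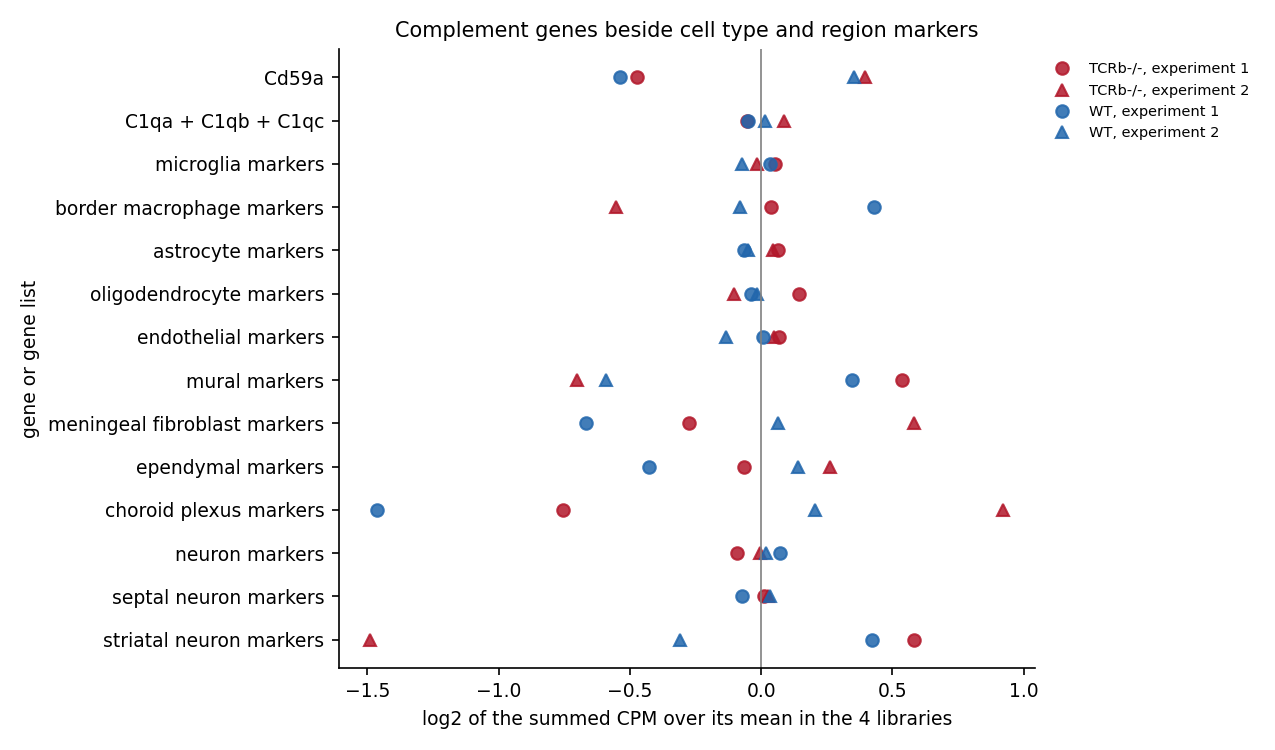
Summed CPM of Cd59a, of the C1q chains and of each marker list in each library, as log2 over its mean in the 4 libraries (0 is the mean). The experiments separate for Cd59a and for choroid plexus, ependymal, meningeal fibroblast, border macrophage, mural and striatal neuron markers. The 4 libraries stay close together for C1q, microglia, astrocyte, septal neuron and neuron markers. Of these, C1q, microglia and septal neuron markers also separate by experiment, but by less.

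Levels were compared between members per kilobase of the longest coding transcript. The order was C1qb (29.1 to 34.4 CPM per kb), C1qc (20.8 to 23.7), C1qa (10.5 to 12.1), Cd59a (5.75 to 10.97), Serping1 (2.05 to 2.81), C4b (1.32 to 1.70) and C3 (0.146 to 0.287). The ranges of C1qa and Cd59a overlapped, and no other neighbours in that order did. Over all exonic bases of the gene, which for C1qc include a longer non-coding transcript, C1qc had 12.95 to 14.77 CPM per kb and kept its place above C1qa, while Serping1 (1.56 to 2.13) and C4b (1.25 to 1.61) overlapped.

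A wider list of 58 complement genes, the 7 members included, was set beside them. Of these, 33 were listed and 25 were tested. By genotype 0 of the 25 passed in limma with or without the block, and 0 had an unadjusted p under 0.05 in either fit, where 0.309% and, with the block, 5.64% of all genes did. Their median difference was 0.03. Between experiments 7 of 25 (28.0%) passed, 4 higher and 3 lower in experiment 2, near the share of 23.7% of all genes. With genotype as a term 6 passed, without Cd55. In the 4 fits that each leave out 1 library, Cd59a and Lrp1 were called in 4, Vtn in 2 (lost without TCRb-/- replicate 1 or WT replicate 1), Clu in 1 (kept without TCRb-/- replicate 1), Csmd1 in 1 (kept without WT replicate 2) and Cd55 and C1qbp in 0. Clu was also lost with an offset of 5, without a filter, under quantile normalization and without a trend, and Cd55 without a filter and without a trend.

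Among initiators, the classical list had 6 of 11 genes listed and 4 tested, all of them members, and 0 passed in either comparison. C1rl (0.285 to 0.649 CPM) and C2 (0.496 to 1.05 CPM) were too low to test. Of the lectin pathway 2 of 8 were listed and Masp1, a protease of that pathway, was tested. Masp1 had 3.09 CPM in TCRb-/- replicate 1 and between 1.65 and 1.79 CPM in the other 3 libraries. Of C3 and the alternative loop 2 of 4 were listed, C3 and properdin (Cfp, 0.626 to 1.201 CPM), and neither was tested. Of the terminal components that build the pore, 3 of 7 were listed and 2 were tested, C8g (2.52 to 3.90 CPM) and Hc, which encodes C5 (1.70 to 2.33 CPM), and 0 passed.

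The soluble inhibitors held 2 of the calls between experiments, of 4 tested (50%, against 23.7% of all genes). Clu, which encodes clusterin, had 908 and 1060 CPM in TCRb-/- and 806 and 998 CPM in WT, higher in experiment 2 by 0.27 (SE 0.08, limma adjusted p 0.0493). Vtn, which encodes vitronectin and is also on the mural list, had 14.2 and 9.56 CPM in TCRb-/- and 14.5 and 8.90 CPM in WT, lower in experiment 2 (-0.58, SE 0.12, adjusted p 0.0157).

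Of the membrane inhibitors 8 were tested of 10, and 3 passed between experiments, 2 higher and 1 lower (37.5%, against 23.7% of all genes). With genotype as a term 2 passed (25.0%, against 24.7% of all genes). Cd55, which speeds the decay of C3 convertases, rose with Cd59a, from 5.12 and 5.46 CPM to 8.15 and 7.42 CPM (0.48, SE 0.14, limma adjusted p 0.0473, and 0.0522 with genotype as a term). Csmd1 fell from 8.01 and 8.36 CPM to 3.30 and 5.59 CPM in TCRb-/- and WT (-0.79, SE 0.21, adjusted p 0.0338). Cr1l, which encodes the rodent inhibitor Crry, had 14.8 to 19.1 CPM and Susd4 had 185 to 206 CPM, and neither passed.

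Of the receptors and binding proteins 6 were tested of 12, and 2 passed between experiments (33.3%, against 23.7% of all genes). With so few genes tested per role, such shares say little about a role. Lrp1 fell from 82.4 and 78.0 CPM to 57.1 and 55.9 CPM (-0.50, SE 0.07, limma adjusted p 0.00637), and C1qbp, which encodes a mitochondrial protein able to bind C1q, rose from 113 and 113 CPM to 134 and 136 CPM (0.25, SE 0.06, adjusted p 0.0261). The receptor genes of the cleavage fragments were low, C3ar1 at 0.650 to 1.79 CPM and C5ar1 at 0.992 to 1.16 CPM.

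By genotype the 5 genes of the wider list with the smallest unadjusted p in the fit with the block were Csmd1, Clu, Csmd3, C3ar1 and Calr. Their differences were -0.33, 0.13, -0.23, -0.33 and 0.08, with adjusted p from 0.859 to 0.918 in limma. Csmd1 and Csmd3 were lower in TCRb-/- in both experiments, with differences of -0.05 and -0.62 for Csmd1 and -0.11 and -0.35 for Csmd3. TCRb-/- replicate 2 was the lowest library for both, as it was for the striatal neuron sum, whose part was not tested.

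**Figure D4:**
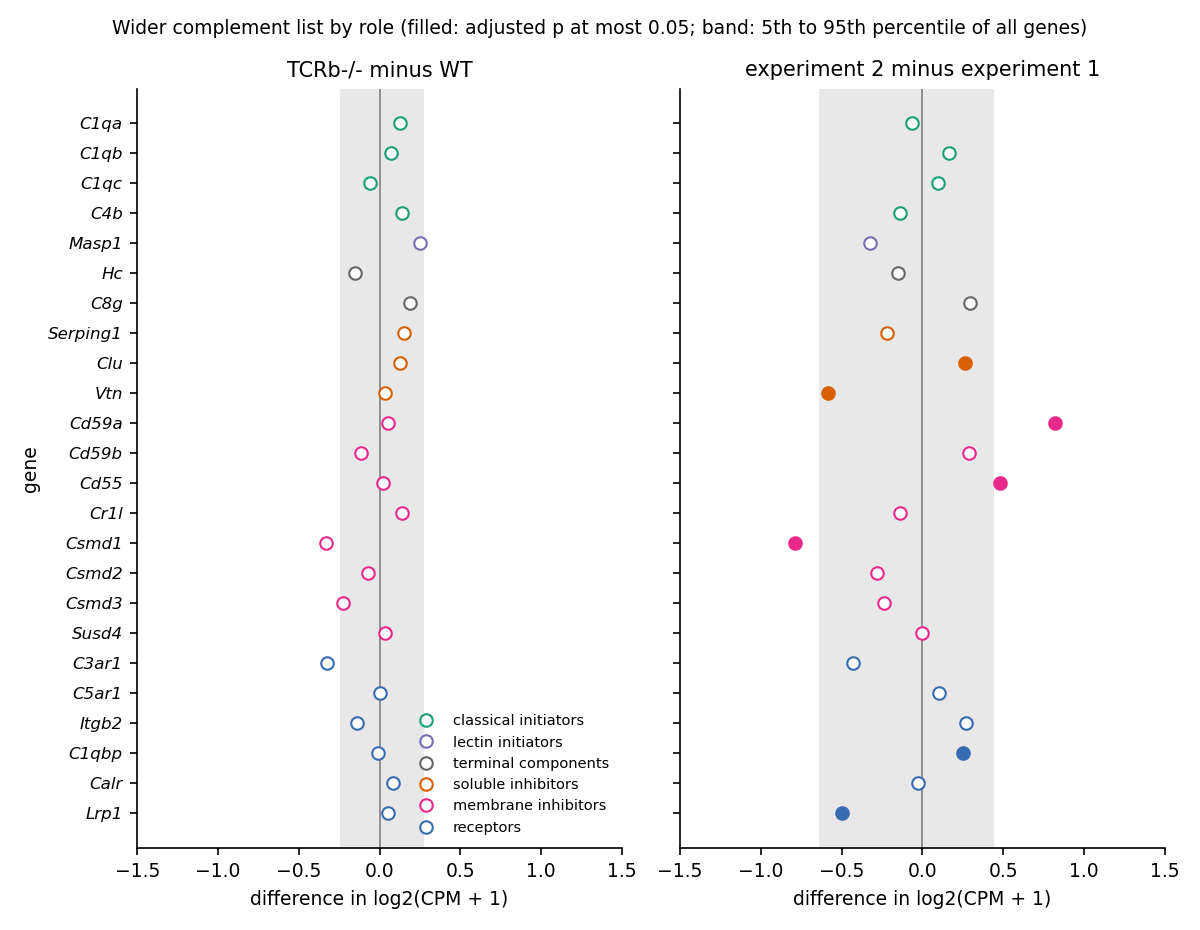
Differences in log2(CPM + 1) of the tested genes of the wider complement list, 1 gene that did not pass left out, by genotype (left) and between experiments (right), coloured by role. Filled circles passed the adjusted threshold of 0.05, and the grey band spans the 5th to the 95th percentile of all 13912 genes. All circles on the left are open, and on the right 7 are filled, with Cd59a farthest to the right at 0.82 and Csmd1 farthest to the left at -0.79.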

How the data were processed

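Per the file headers, the deposited values are log2 numbers, 1 file per library, listed by gene symbol. The submitters' processing notes name HISAT2 2.1.0, SAMtools 1.3, HTSeq 0.9.1, R 4.0.5, limma 3.46.0 and the build mm10, and per the labels the SMARTer ultra-low-input kit was used. For the annotation and for the choice of listed rows, the sources used here give nothing. The deposited log2 values solve to log2 CPM with an offset of 0.5 reads per gene and 1 read per library. Whole reads came out for 100% of values within 0.001 reads. The 17 spike-in rows were left out.

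Reads were expressed as CPM and as log2(CPM + 1), which understates changes of low genes. The 13912 genes whose mean reached 1 CPM were fitted in limma 3.58.1 under R 4.3.3 (mean-variance trend, two-sided, Benjamini-Hochberg over all genes, threshold 0.05), by genotype or by experiment as the only term. Intervals of single libraries are exact (Clopper-Pearson, 95%) and, like the floor of 3 reads, cover counting error only. At this size (2 libraries against 2) exact permutation gives no p below 0.333. The labels give each genotype the same experiment numbers, which pair the samples, and deviations of same-numbered libraries correlated at 0.719 across genes, so a blocked fit was run as an alternative. Replicates differed beyond sampling noise (chi-square per degree of freedom 57.4 and 33.3). P-values rest on the spread between the pools of a group, moderated by limma with a trend over all genes. With experiment as the only term the pools of a group differ in genotype, so genotype differences enter the error. With genotype as the only term they differ in experiment.

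The members and lists were chosen with earlier results of these data known. Named genes were the members, their near copies, genes of the wider list called in either comparison (up to 3 per role), the 5 with the smallest p by genotype with the block, the 2 most abundant markers per list and the 3 nearest profiles. Other genes of the wider list were named after their values were seen. Some genes are not reported here by name. Gene models were from GENCODE M21 (GRCm38, the same assembly as mm10). Alternatives were quantile normalization, median-of-ratios scaling, no trend, offsets of 0.1 and 5, a filter at 10 CPM or none, the block with and without voom weights, and leaving out each library. The rest was computed in Python 3.11.15 (scipy 1.17.1, pandas 2.3.3, numpy 2.4.6) and drawn with matplotlib 3.10.9.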

Additional observations from a re-analysis of the deposited data

Results flagged for a closer look

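For 3 members the difference between genotypes had opposite signs in the experiments. With 1 library per genotype in each experiment the change of the difference could not be tested. C3 differed by 0.07 in experiment 1 and by -0.50 in experiment 2 (TCRb-/- minus WT, log2(CPM + 1)), a change of -0.57 that rests on 33 reads in WT replicate 2. C4b differed by 0.32 and by -0.05, a change of -0.37, and C1qc by -0.15 and by 0.03, a change of 0.17.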

How the results depend on the processing

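Of 104 values of members under an alternative with all libraries, 103 kept their direction and their side of the threshold, and the exception was C1qa between experiments, at 0.029 under quantile normalization. Cd59a between experiments kept its call under each alternative, with adjusted p from 0.00463 to 0.0444, and from 0.00137 to 0.0284 without 1 library. By genotype the members were far from the threshold, so their stability says little. With a library left out, 45 of 52 values kept their direction and their side of the threshold, but sizes moved, Serping1 by genotype to between 0.037 and 0.26, C3 by genotype to between -0.46 and -0.17 and between experiments to between 0.17 and 0.45, and, between experiments, C1qc to between 0.023 and 0.17, Serping1 to between -0.30 and -0.14 and C1qa to between -0.13 and -0.00087. C1qb by genotype changed to -0.019 and -0.0060 without TCRb-/- replicate 2 and WT replicate 1, C1qc to 0.032 and C4b to -0.027 without TCRb-/- replicate 1, Cd59a to -0.36 and -0.36 without TCRb-/- replicate 2 and WT replicate 1 (the ranges were -0.019 to 0.16, -0.15 to 0.032, -0.027 to 0.30 and -0.36 to 0.47), and C4b between experiments to 0.019 without TCRb-/- replicate 1 (range -0.30 to 0.019). A left-out library leaves 1 sample in a group, assumed to vary like the other, and unbalances the experiments.

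The count by genotype was 2 (Trbc2 and Ttr) with the replicate block and 2 with the block and voom weights, and 0 to 38 without 1 library, where leaving out TCRb-/- replicate 1 gave 38 and TCRb-/- replicate 2 gave 1 (Trbc2). The block changed no other call by genotype. Between experiments it was 629 without a trend, and 1379 to 3395 without 1 library, with 1379, 1797 and 1680 without TCRb-/- replicate 1, TCRb-/- replicate 2 and WT replicate 1. The share of higher calls was 37.8%, and 50.6% under quantile normalization. Counts over the wider list were added after seeing the data. By genotype they were 0 under each alternative. Between experiments 3 genes (Cd59a, Lrp1 and Vtn) were called without a trend, and 2 to 5 without 1 library, with 3, 3 and 2 in the order above. Cd59a and Lrp1 were among them each time. The cause was not tested.

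C3 has a value only without a filter, and in 2 of the fits with a library left out for each comparison. C3, C4b and Serping1 have none at 10 CPM. Depth limits C3, since 1 read is worth 0.0382 to 0.05003 CPM.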
